A study of Rattus norvegicus with 12 samples.

Results

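The genes described here encode the collagen, laminin and nidogen chains of basement membranes. The set names 10 genes, and the array probes whose accession matched one of them were taken, which gave 4 of the 10 genes and 7 of the 30367 gene probes. The matched genes were the collagen chain Col4a1 (probes A_64_P149501 and A_64_P293606), the laminin chains Lamb2 (A_44_P550228) and Lamc1 (A_42_P592615 and A_44_P456792), and the nidogen Nid2 (A_44_P456444 and A_43_P20178). Col4a2, Lama2, Lama4, Lamb1, Nid1 and Hspg2 were not analysed here. All 4 matched genes passed the filter on dim probes, which kept probes well above background on at least 4 arrays.

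A basement membrane is a thin sheet of extracellular matrix on which cells rest. Laminin trimers of an alpha, a beta and a gamma chain polymerise at the cell surface, collagen IV trimers form a second network, and nidogens and the proteoglycan perlecan (Hspg2) link the networks. In a dorsal root ganglion such sheets enclose Schwann cells with their axons, the satellite glia around each sensory neuron, and the blood vessels. Collagen IV, encoded by Col4a1 and Col4a2, occurs in all of these membranes, and the gamma chain encoded by Lamc1 is part of most laminins.

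Expression was measured on 12 one-colour arrays in total RNA of whole dorsal root ganglia, where the cell bodies of sensory neurons lie, at the L6 level. The rats were male and of the inbred strain Fischer 344. The group young_AL was 6 months old, old_AL was 25 to 28 months old, and both ate normal food freely. The group old_CR was also 25 to 28 months old and had been given food on 3 days a week from the age of 6 weeks, an intake about 40% lower. Each group has 4 arrays, the design gives 4 rats per group, and no group carried a transgene or a drug. Old_AL was compared with young_AL for age, old_CR with old_AL for diet at one age, and old_CR with young_AL, where both differ; these comparisons share arrays. In RNA of whole ganglia, fewer cells of a type and less RNA per cell cannot be told apart.

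The array old_AL 1 stood apart. The 75th percentile of its signal reached 7662, while the other 11 arrays had 2634 to 3110, and 4026 of its spots had uneven signal, against 1 to 208. Results below are therefore from the other 11 arrays, with the fit of all 12 beside them. The array old_AL 4 also differed, with a 75th percentile 34.5 times its 25th percentile, against 60.5 to 72.8 on the other 10. The young_AL arrays lay on one slide and all old arrays on the other, so the slide cannot be told apart from age, and neither can the row on the second slide from diet. All 9 measured markers of sensory neurons and all 10 of myelinating Schwann cells passed the filter. So did every measured marker of the other cell types described below. With the filter 20849 genes were tested, against 26903 without it, so passing does not identify the tissue.

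Promoter windows are shown for the pair of matched genes that fell against young_AL and have an entry in the RefSeq table of the rat build GRCr8. Each window runs from 250 bases before to 50 bases after the start of the gene. Entries were matched for 8 of the 10 genes, all but Lamb2 and Nid2. In the Col4a1 window, at chr16:84885347-84885646 on the plus strand, capitals mark the 76 bases between the start of Col4a1 and that of Col4a2, which is read the opposite way.
Col4a1: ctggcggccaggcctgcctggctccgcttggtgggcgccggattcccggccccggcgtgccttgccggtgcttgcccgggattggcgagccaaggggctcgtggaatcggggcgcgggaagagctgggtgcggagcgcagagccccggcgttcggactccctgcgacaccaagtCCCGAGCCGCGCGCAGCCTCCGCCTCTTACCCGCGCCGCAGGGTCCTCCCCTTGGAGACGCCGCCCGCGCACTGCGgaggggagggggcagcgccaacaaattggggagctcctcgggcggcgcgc
The windows of Col4a1 and Col4a2 overlapped by 176 bases, which read identically on opposite strands. In the Lamc1 window, at chr13:68051937-68052236 on the minus strand, capitals mark the letters GGGCGG, the GC box, on either strand.
Lamc1: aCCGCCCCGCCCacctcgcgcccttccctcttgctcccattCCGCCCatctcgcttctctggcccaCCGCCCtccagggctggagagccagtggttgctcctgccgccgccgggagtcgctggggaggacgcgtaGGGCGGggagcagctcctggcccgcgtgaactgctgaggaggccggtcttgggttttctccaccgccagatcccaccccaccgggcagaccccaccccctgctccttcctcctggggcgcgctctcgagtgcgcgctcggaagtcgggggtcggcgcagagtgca
The Lamc1 window held 5 GC boxes, 249, 244, 209, 184 and 115 bases before the start, and the Col4a1 window held 2. GC content was 75% in the Col4a1 window and 71.7% in the Lamc1 window. The letters CCAAT occurred at 2 places in the Col4a1 window and at 0 in the Lamc1 window, and TATAAA occurred in neither. Searched on both strands in windows of this length, 33.1% of 33469 rat promoters held GGGCGG, 37.5% held CCAAT and 14.2% held TATAAA. The 3 sets of letters were searched separately, and a match describes the sequence and shows no binding.

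Col4a1 was lower in both old groups than in the young group, at 0.647 and 0.654 times its level. A value is the log2 signal of a gene's brightest probe relative to the 75th percentile of its array. In young_AL the 4 arrays read 2.67, 2.64, 2.61 and 2.55, in old_AL the arrays 2, 3 and 4 read 1.92, 2.14 and 1.92, and in old_CR the 4 arrays read 1.92, 2.20, 1.87 and 2.03. Every young value lay above every old value, and the old groups overlapped. The group means were 2.62 ± 0.05 (SD, n = 4) in young_AL, 1.99 ± 0.12 (n = 3) in old_AL and 2.01 ± 0.14 (n = 4) in old_CR.

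With age, Col4a1 fell by 0.63 ± 0.08 on the log2 scale (± SE), a level 0.647 times that of young_AL, with an adjusted p of 0.0133 in limma over all 20849 genes tested. In old_CR against young_AL it fell by 0.61 ± 0.08, to 0.654 times, with an adjusted p of 0.0109. With diet no difference passed the test, since old_CR minus old_AL was 0.01 ± 0.08, with an adjusted p of 0.928. Leaving out any 1 of the 11 arrays kept both falls past the threshold of 0.05. In the fit of 12 arrays the falls were 0.73 ± 0.12 and 0.61 ± 0.12, with adjusted p of 0.148 and 0.34, so neither passed; old_AL 1 itself read 1.58, the lowest of all arrays.

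The other Col4a1 probe was dimmer and also lower in the old groups. It read between -3.66 and -3.35 in young_AL, between -3.84 and -3.72 on old_AL 2 to 4, and between -4.19 and -3.81 in old_CR, so that again neither old group overlapped the young group. Tested on its own it fell by 0.49 ± 0.10 in old_CR against young_AL (adjusted p 0.0364), while its difference with age was -0.32 ± 0.11 (adjusted p 0.122). The probes of the gene thus went in one direction against young_AL and differed in size, and one of them did not pass with age.

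**Figure D1:**
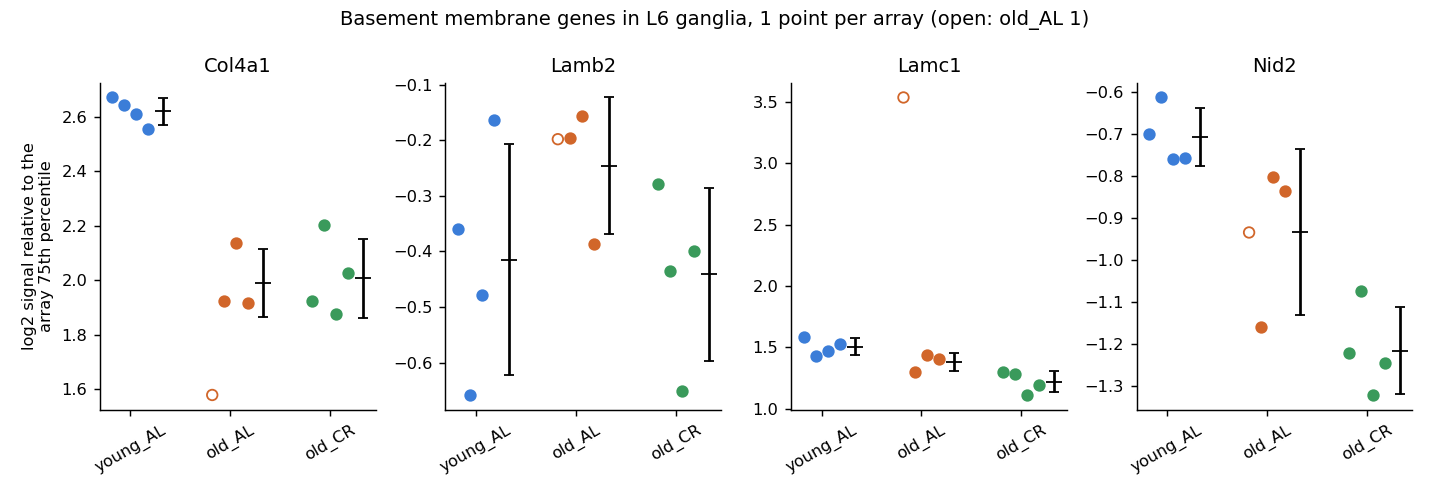
Log2 signal of the brightest probe of Col4a1, Lamb2, Lamc1 and Nid2 relative to the 75th percentile of the array, with 1 point per array and a separate vertical scale for each gene. Bars are the mean ± SD of each group without old_AL 1 (open circle); young Col4a1 values lie between 2.55 and 2.67, above all old values, and old_AL 1 reads 3.54 for Lamc1.

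Lamc1, the gamma chain, fell in old_CR against young_AL and lay between them in old_AL. The young_AL arrays read 1.59, 1.43, 1.47 and 1.53, old_AL 2 to 4 read 1.30, 1.44 and 1.40, and old_CR read 1.30, 1.28, 1.11 and 1.19. The young and the old_CR arrays did not overlap, whereas old_AL overlapped with both. Means were 1.50 ± 0.07 (SD, n = 4), 1.38 ± 0.07 (n = 3) and 1.22 ± 0.09 (n = 4) in the order young_AL, old_AL, old_CR.

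The drop of Lamc1 in old_CR against young_AL was 0.28 ± 0.06, to 0.822 times the young level, with an adjusted p of 0.0355 in limma. The neighbours in that order did not differ past the test, with -0.12 ± 0.06 for age (adjusted p 0.25) and -0.16 ± 0.06 for diet (adjusted p 0.142). The call rested on a thin margin, because it was lost when any 1 of the 4 young_AL arrays was left out (adjusted p 0.0608 to 0.0946) or any 1 of the 4 old_CR arrays (0.0586 to 0.105). With all 12 arrays the difference was -0.28 ± 0.41, with an adjusted p of 0.999967, and the age difference turned to 0.42 ± 0.41 (adjusted p 0.587).

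That turn came from old_AL 1, which read 3.54 for Lamc1, far above the other 11 arrays. The brightest Lamc1 probe has 10 replicate spots on each array, and on old_AL 1 they gave signals from 78343 to 95302, against 6439 to 6751 on old_AL 2. The other Lamc1 probe read -2.63 on old_AL 1, within the young_AL range of -2.72 to -2.56. None of these spots was saturated. On the other 11 arrays the spots of one array had an SD of 0.0175 to 0.0503 on the log2 scale, so spots within an array varied less than arrays within a group.

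The dimmer Lamc1 probe read -2.96 to -2.78 on old_AL 2 to 4 and -3.00 to -2.74 in old_CR, both below all young_AL arrays. Its differences were -0.24 ± 0.07 with age (adjusted p 0.0928) and -0.22 ± 0.06 in old_CR against young_AL (adjusted p 0.105), and neither passed. Between the old groups it read 0.02 ± 0.07 (adjusted p 0.905), whereas the brightest probe read -0.16.

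**Figure D2:**
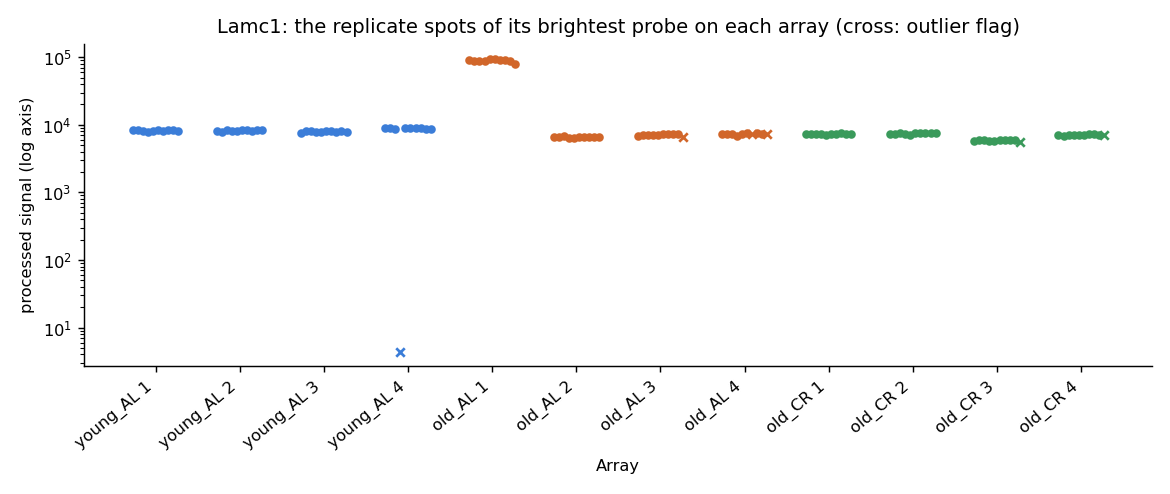
Processed signal on a log axis of the 10 replicate spots of the brightest Lamc1 probe on each of the 12 arrays, coloured by group, with crosses for spots that carry an outlier flag. The spots of old_AL 1 lie together between 78343 and 95302, and 1 spot of young_AL 4 reads 4.42.

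Lamb2, a beta chain found in laminins of mature nerve, muscle and kidney, showed no difference past the test. Its arrays read -0.36, -0.66, -0.48 and -0.16 in young_AL, -0.20, -0.16 and -0.39 on old_AL 2 to 4, and -0.28, -0.44, -0.65 and -0.40 in old_CR. The 3 groups overlapped throughout. Means were -0.41 ± 0.21 (SD, n = 4), -0.25 ± 0.12 (n = 3) and -0.44 ± 0.16 (n = 4). The differences were 0.17 ± 0.12 with age (adjusted p 0.427 in limma), -0.19 ± 0.12 with diet (0.325) and -0.03 ± 0.11 in old_CR against young_AL (0.936). All 12 arrays gave 0.18, -0.21 and -0.03, with adjusted p from 0.578 to 0.999967.

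Nid2, the nidogen that joins laminin to collagen IV, stood highest in young_AL, lower in old_AL and lowest in old_CR. It read -0.70, -0.61, -0.76 and -0.76 in young_AL, -1.16, -0.80 and -0.84 on old_AL 2 to 4, and -1.22, -1.07, -1.32 and -1.25 in old_CR. Both old groups lay below all young arrays, and old_AL 2 lay within the range of old_CR. The means were -0.71 ± 0.07 (SD, n = 4), -0.93 ± 0.20 (n = 3) and -1.22 ± 0.10 (n = 4).

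Nid2 fell in old_CR against young_AL by 0.51 ± 0.08, to 0.704 times the young level, with an adjusted p of 0.0222 in limma. The age difference of -0.22 ± 0.09 (adjusted p 0.185) and the diet difference of -0.28 ± 0.09 (adjusted p 0.107) did not pass. Without old_AL 2 the diet difference was -0.40, with an adjusted p of 0.0364. The fall against young_AL missed the threshold, with adjusted p of 0.0608 to 0.0691, when young_AL 1, 2 or 3 or old_CR 1, 3 or 4 was left out. The 12 arrays together gave differences of -0.23 ± 0.10, -0.28 ± 0.10 and -0.51 ± 0.10, with adjusted p of 0.578, 0.644 and 0.34.

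The other Nid2 probe has a single spot per array and was not a usable check. It read -3.58, -3.74 and -3.73 on young_AL 1 to 3 and -9.45 on young_AL 4, where it was not above background. Old_AL 2 to 4 read -4.16, -3.82 and -2.77, and old_CR read -4.41, -4.23, -4.32 and -4.23. Old_CR lay below the first 3 young arrays, while old_AL 4 lay above them. Its differences were 1.54 ± 1.27 with age and 0.83 ± 1.17 in old_CR against young_AL, opposite in sign to the brightest probe, with adjusted p of 0.485 and 0.765. Without the young_AL 4 spot they were 0.10 ± 0.29 and -0.61 ± 0.27, with adjusted p of 0.856 and 0.282.

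That spot belonged to a streak of blank spots on young_AL 4. A spot was counted as blank where its signal was under 5% of the median of the same spot on the other 10 arrays and that median was above 100. The array held 386 such spots among 39299 compared, or 0.982%, of which 263 carried no outlier flag, and the other arrays held 0 to 2. Besides the Nid2 spot, 1 of the 10 Lamc1 spots was blank, and its outlier flag had already removed it. With blank spots left out, the number of these genes called was unchanged in all 3 comparisons.

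**Figure D3:**
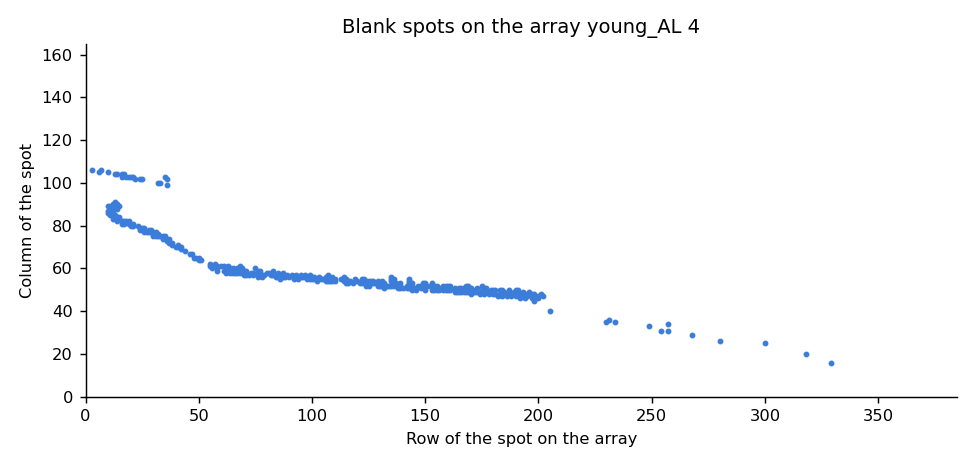
Row (of 384) and column (of 164) on the array of the 386 blank spots of young_AL 4, each point a spot. They follow a curved line from row 3 to row 329, and the quartiles of their columns are 51 and 61.75.

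Set beside all genes, the count of falls was 1 of 4 with age, where 3.24% of all genes tested were called and 1.25% were called lower. At an unadjusted p below 0.05 it was 2 of 4, against 23.1% of all genes. With diet 0 of 4 were called, where 1.06% of all genes were, and 2 of 4 had an unadjusted p below 0.05, against 26.4%. It was 3 of 4 in old_CR against young_AL, where 2.41% were called and 1.63% were called lower, and the same 3 had an unadjusted p below 0.05, against 18.3% of all genes. The fit of 12 arrays called 0 of 4 in each comparison, and 0.0191%, 0.00478% and 0.0191% of 20942 genes. At an unadjusted p below 0.05 that fit held 2 of 4 with age, 1 of 4 with diet and 2 of 4 in old_CR against young_AL, against 6.71%, 5.96% and 2.72% of all genes.

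The groups did not overlap, with the old one lower, for 2 of 4 genes with age and for 3 of 4 in old_CR against young_AL, and the same was true of 7.67% and 10.2% of all genes. The median difference of the 4 genes was -0.17 with age, -0.18 with diet and -0.39 in old_CR against young_AL. Over all genes the medians were 0.03, -0.05 and -0.02. All 12 arrays gave -0.02, -0.24 and -0.39 for the 4 genes, and -0.06, 0.04 and -0.02 for all genes. Among all genes called with age 61.5% were higher, and this share depended on the scaling, with 24.9% under quantile normalization, 13.1% under median centring and 86.3% after normexp background correction. With diet the shares were 25.2%, 67.6%, 86.7% and 10.7% in the same order. Col4a1 fell with age under each of these scalings.

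**Figure D4:**
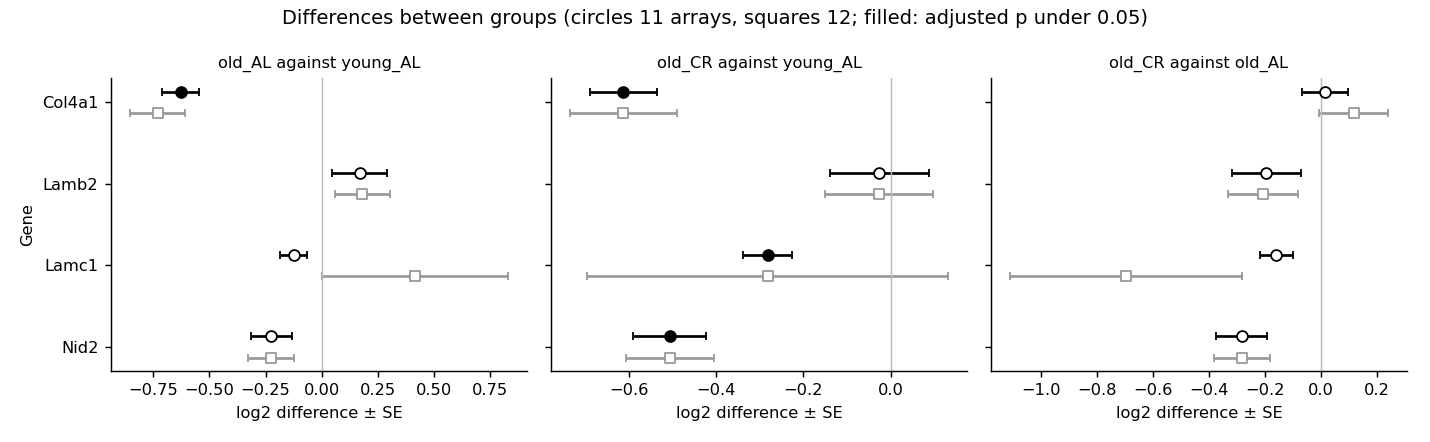
Log2 difference ± SE of Col4a1, Lamb2, Lamc1 and Nid2 in the 3 comparisons, from 11 arrays (black circles) and from all 12 (grey squares), each panel with its own scale. Filled symbols passed an adjusted p of 0.05: Col4a1 with age at -0.63, and Col4a1, Nid2 and Lamc1 at -0.61, -0.51 and -0.28 in old_CR against young_AL, all from 11 arrays.

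A wider list held 42 other basement membrane genes: other chains and associated proteins, enzymes and chaperones that assemble collagen, and cell receptors. Of these, 29 were tested, 12 of 19 in the first class, 10 of 12 in the second and 7 of 11 in the third. With age 1 was called higher, 1 was called lower and 27 did not pass, where 3.24% of all genes were called and 1.25% were called lower. An unadjusted p below 0.05 was seen for 8, against 23.1% of all genes. The median age difference was 0.05, beside 0.03 for all genes. With diet 0 of 29 passed in limma, and 9 had an unadjusted p below 0.05, against 26.4% of all genes. The diet difference was negative for 22 of 29, against 62.9% of all genes, with medians of -0.12 and -0.05. In old_CR against young_AL 0 of 29 passed and 7 had an unadjusted p below 0.05, against 18.3% of all genes, with a median of -0.05 beside -0.02. From 12 arrays 0 of 30 passed in any comparison, and 5, 5 and 4 had an unadjusted p below 0.05, against 6.71%, 5.96% and 2.72% of all genes.

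The gene called higher was Smoc1, a secreted calcium-binding protein of basement membranes. Its signal was at the limit of detection, well above background on 1 of 4 young_AL, 2 of 3 old_AL and 4 of 4 old_CR arrays. It passed the filter only with the help of the old_CR arrays, since the young_AL and old_AL arrays alone fall short of the 4 arrays required. The fitted age difference was 1.07 ± 0.19, with an adjusted p of 0.0288 in limma. Both this call and its size are uncertain, because most young_AL values were not well above background. Smoc1 read -7.62, -7.34, -8.00 and -7.71 in young_AL and -6.48, -6.24 and -7.07 on old_AL 2 to 4. The rise missed the threshold, with adjusted p of 0.0503 to 0.0813, without young_AL 2, 3 or 4, old_AL 2 or 3 or old_CR 4. Agrn, the heparan sulfate proteoglycan agrin that clusters receptors at the nerve-muscle synapse, fell with age by 0.18 ± 0.04 (adjusted p 0.0387). It read 3.78 to 3.82 in young_AL, 3.58 to 3.65 on old_AL 2 to 4 and 3.73 to 3.81 in old_CR. That fall held when old_CR 3 was left out and missed the threshold without any other of the 11 arrays (adjusted p 0.0541 to 0.0892). With all 12 arrays the difference of Agrn turned to 0.25, since old_AL 1 read 5.33, and Smoc1 no longer passed (adjusted p 0.443).

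In the other comparisons the 3 genes with the smallest p are given, and none of them passed. With diet these were Agrn (0.15 ± 0.04, adjusted p 0.0649), Col18a1 (-0.41 ± 0.10, 0.0666), the chain whose end fragment is endostatin, and Plod3 (-0.21 ± 0.06, 0.0765), a lysyl hydroxylase that also adds sugars to collagen. Col18a1 read -0.69, -0.54 and -0.55 on old_AL 2 to 4 and -1.04, -0.73, -1.23 and -1.02 in old_CR, so the groups did not overlap. The same was true of 23.5% of all genes, and of 15.3% with old_CR lower. In old_CR against young_AL they were Serpinh1 (-0.55 ± 0.13, 0.0617), Sparc (-0.33 ± 0.09, 0.0964) and Smoc1 (0.60 ± 0.18, 0.116).

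Serpinh1 encodes HSP47, the chaperone of newly made collagen, and Sparc a matrix protein that binds collagen IV. Serpinh1 read 1.93, 1.73, 1.70 and 1.51 in young_AL and 0.97, 1.38, 1.12 and 1.21 in old_CR, with 1.05, 1.53 and 1.29 on old_AL 2 to 4. Sparc read 5.27, 5.06, 5.21 and 5.10 in young_AL and 4.86, 4.99, 4.61 and 4.86 in old_CR. In both genes each old_CR array lay below each young_AL array, as was true of 10.2% of all genes. Without old_AL 2, Serpinh1 passed in old_CR against young_AL with an adjusted p of 0.0444, and Smoc1 passed there without old_AL 4, with 0.0391. The Smoc1 difference there carries little weight, since it was well above background on 1 of 4 young_AL and 4 of 4 old_CR arrays. It thus passed the filter only with the help of the group that read higher.

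A further pair of genes was picked out after their values were seen, because a blank spot set their result. Itgb1, the beta chain of most laminin- and collagen-binding integrins, read -9.42 on young_AL 4 and 1.37 to 1.41 on the other young arrays, so its age difference was 2.81 ± 2.33. With blank spots left out it was 0.11 ± 0.08, with an adjusted p of 0.421. Plod1, another lysyl hydroxylase, read -4.16 on young_AL 4 and 1.08 to 1.14 on the other young arrays. Its age difference was 1.24 ± 1.13, and -0.07 ± 0.03 (adjusted p 0.24) without the blank spot.

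**Figure D5:**
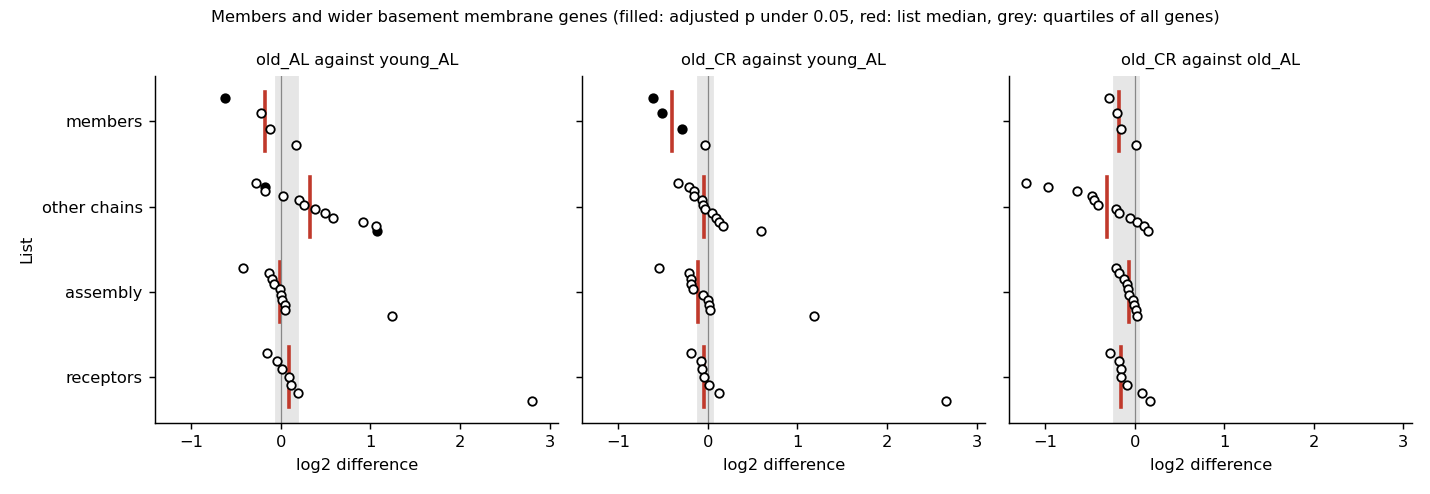
Log2 differences from 11 arrays of the 4 genes and of the 3 classes of the wider list in each comparison, 1 point per gene, filled where the adjusted p was under 0.05. Red lines are list medians, and the grey band spans the quartiles of all genes, which runs from -0.056 to 0.188 with age; the points at 2.81 and 1.24 are Itgb1 and Plod1.

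Genes whose values followed Col4a1 most closely over the 11 arrays were Desi1 (Pearson r 0.968), Tjap1 (0.968), Tpm1 (0.963), Tmbim1 (0.958) and Nde1 (0.957). They were ranked on Col4a1 alone among all genes with a symbol, since the mean with Col4a2 could not be formed. Part of these correlations is the step between young and old that the arrays share. With each group's mean taken out, r was 0.699, 0.842, 0.654, 0.895 and 0.737.

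Several cell types of a ganglion make basement membrane, and the linear signal of their markers was summed in units of the 75th percentile of the array. The sums were not tested, and all markers matched in each list passed the filter. A linear sum weighs bright markers most, so a dim marker can differ without moving it. In young_AL the log2 means of Mbp, Lyz2 and Ngfr were 6.56, 4.25 and 3.56. These were the highest of the myelinating Schwann, macrophage and non-myelinating Schwann lists. The 10 markers of myelinating Schwann cells summed to 153 to 173 in young_AL, 130 to 157 on old_AL 2 to 4 and 129 to 149 in old_CR, so old_AL overlapped with young_AL and old_CR lay below it. With age all 10 had a negative difference, against 40.8% of all genes, with a median of -0.23. In limma 0 passed, against 3.24% of all genes, and 4 had an unadjusted p below 0.05, against 23.1%. In old_CR against young_AL 9 of 10 were negative, against 55.7% of all genes, with a median of -0.39. The same number had an unadjusted p below 0.05, against 18.3% of all genes. Pmp22, a myelin membrane protein, was the one that passed, where 2.41% of all genes did, with a fall of 0.30 ± 0.06 (adjusted p 0.0491). The 4 of 5 markers of non-myelinating Schwann cells that were matched summed to 13.4 to 14.3, 13.2 to 14.1 and 13.6 to 14.5. Of these 0 passed in any comparison, and 1 had an unadjusted p below 0.05 in each. The shares of all genes at that p were 23.1% with age, 26.4% with diet and 18.3% in old_CR against young_AL. With age and with diet that marker was Gfap, the dimmest, at 0.91 ± 0.35 and -0.96 ± 0.35 (adjusted p 0.171 and 0.137 in limma). Whether these markers belong to non-myelinating Schwann cells alone in a whole ganglion was not tested.

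The 8 fibroblast markers summed to 39.9 to 50.2, 32.7 to 44.4 and 27.4 to 38.7 in the same order. This list was split, with 4 negative and 4 positive age differences and a median of -0.02. With age 0 of 8 passed, where 3.24% of all genes were called. An unadjusted p below 0.05 was seen for 5, of which 3 were lower, against 23.1% of all genes. Of all genes 40.8% had a negative age difference. In old_CR against young_AL 5 were negative, against 55.7% of all genes, and 3 positive, with a median of -0.20. The collagen I chain Col1a1 alone passed there, with a fall of 0.92 ± 0.15 (adjusted p 0.0201), where 2.41% of all genes were called. An unadjusted p below 0.05 was seen there for 4, all lower, against 18.3% of all genes. The collagen chains Col3a1 and Col1a2 differed there by -0.68 ± 0.17 and -0.47 ± 0.12 (adjusted p 0.0725 and 0.0851 in limma). The matrix proteoglycans Dcn and Lum differed there by 0.01 ± 0.19 and 0.17 ± 0.15 (adjusted p 0.991 and 0.613). With age Dcn and Lum differed by 0.50 ± 0.20 and 0.48 ± 0.16 (adjusted p 0.185 and 0.129). Col1a1, Col3a1 and Col1a2 differed with age by -0.61 ± 0.16, -0.53 ± 0.19 and -0.45 ± 0.13 (adjusted p 0.0698, 0.14 and 0.0977). For these collagen chains, 3 of the 8 markers, old_AL 2 to 4 lay below young_AL without overlap, as was true of 7.67% of all genes.

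The 10 of 12 endothelial markers that were matched summed to 4.35 to 4.95 in young_AL, 4.13 to 4.94 in old_AL and 4.01 to 4.46 in old_CR. Of these 0 passed in any comparison in limma. An unadjusted p below 0.05 was seen for 2 with age, both higher, and for 5 with diet, all lower. In old_CR against young_AL it was seen for 3, of which 2 were lower. The shares of all genes were 23.1%, 26.4% and 18.3%. The 10 markers of pericytes and smooth muscle summed to 5.18 to 5.83, 5.35 to 6.86 and 5.14 to 5.67, and Pdgfrb fell with diet by 0.46 ± 0.09 (adjusted p 0.0459). Of these 10, 2 were negative with age, against 40.8% of all genes. An unadjusted p below 0.05 with age was seen for 5, all higher, against 23.1%. All 10 were negative with diet, against 62.9% of all genes, and 4 had an unadjusted p below 0.05, against 26.4%. The 6 markers of satellite glia summed to 4.77 to 5.35, 4.77 to 4.95 and 4.00 to 4.39, and Fabp7 and Slc1a3 fell in old_CR against young_AL by 0.60 ± 0.11 and 0.40 ± 0.05 (adjusted p 0.0273 and 0.00995). Slc1a3 also fell with diet, by 0.36 ± 0.05 (adjusted p 0.0289). Of the 6, 4 were negative in old_CR against young_AL, against 55.7% of all genes. The 2 positive ones were Glul (0.20 ± 0.11) and Cdh19 (0.06 ± 0.07), which did not pass.

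The 9 markers of sensory neurons summed to 446 to 471, 440 to 455 and 421 to 443. Of these 2 passed with age, 1 with diet and 1 in old_CR against young_AL, where 3.24%, 1.06% and 2.41% of all genes were called. With age 6 of 9 were negative, against 40.8% of all genes, and 3 had an unadjusted p below 0.05, against 23.1%. Nefl fell against young_AL by 0.31 ± 0.04 in old_AL and 0.21 ± 0.04 in old_CR (adjusted p 0.0133 and 0.0269). Isl1 fell with age by 0.19 ± 0.04 (adjusted p 0.048) and rose with diet by 0.31 ± 0.04 (adjusted p 0.0289), and in old_CR against young_AL it differed by 0.12 ± 0.04 (adjusted p 0.13). The 10 macrophage markers summed to 21.9 to 34.6, 30.9 to 44.1 and 24.2 to 38.6, and Cd163 and Mrc1 rose with age by 1.81 ± 0.35 and 1.13 ± 0.23 (adjusted p 0.0336 and 0.0377 in limma). With age all 10 had a positive difference, with a median of 0.81, while 40.8% of all genes were negative. An unadjusted p below 0.05 was seen for 8 of them, all higher, against 23.1% of all genes. With diet all 10 were negative, against 62.9% of all genes, and 0 passed. There 4 had an unadjusted p below 0.05, against 26.4%. From 12 arrays 0 of the 67 markers tested passed in any comparison. Whether these markers have a part in the results for Col4a1, Lamc1 and Nid2 was not tested.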

How the data were processed

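Per the labels, Cy3-labelled cRNA from total RNA was put on 12 one-colour Agilent arrays. The deposited files give the intensity of each spot, linear in scale, made with Agilent Feature Extraction 10.7 per the submitters' processing notes. Per the file headers, the software used by the authors had subtracted background from the processed intensity and detrended it within each array, without scaling between arrays; the deposited table of the whole series held the same values, with a largest difference of 0. Its column medians ran from 444 to 937, so it is linear and not centred.

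The value analysed was the log2 processed intensity after subtracting the log2 75th percentile of the array. Control spots (4259 of each array) were left out, outlier spots were set to missing and replicate spots of the 58717 gene spots were averaged. Probes well above background, in at least a share of 0.5 of their spots, on at least 4 arrays were kept, and the brightest probe stood for a gene. Symbols came from the RefSeq genes of GRCr8 by accession, used for gene names and promoter windows only, since the files carry the older tag rn4; 17998 of 30367 probes carried one of 15154 symbols, and the rest were tested under their accession. The 3 comparisons used limma 3.58.1 (lmFit, eBayes, one mean for each group) in R 4.3.3 with Benjamini-Hochberg adjustment over all genes and a threshold of 0.05; the package data.table (version 1.17.8) read the files, and matplotlib 3.10.9 drew the plots in Python 3.11.15. The procedure was tested on simulated data. The number of arrays limits the precision, and nothing in the labels ties an array to a named animal.

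The genes, the lists and the choice of 11 arrays were made with earlier results of these data known. Named genes were the 10 basement membrane genes, the genes of the wider list that passed in a comparison or else the 3 with the smallest p there, and the 5 genes most correlated with Col4a1. Alternatives were all 12 arrays, other scalings, filters, probe rules and variance models, the series table, the replicate number as a block, each array left out, and blank spots left out, the last chosen after seeing the data.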

Additional observations from a re-analysis of the deposited data

Results flagged for a closer look

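Across 39 sets of 4 arrays of one group, 5 held an array whose gap to its nearest neighbour, as a share of the range of the group, was above Dixon's critical value for 4 samples. Chance gives about 1 in 20 for independent sets, but these share the same arrays and include second probes of some genes. The count is therefore not set against chance. Of the 5, 4 were on old_AL 1 and 1 on young_AL 4 at a blank spot. Itgb1 and Plod1, picked because their values had been seen, added 4 more, which are not set against chance either.

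On old_AL 1 the brightest Lamc1 probe read 3.54 against 1.30 to 1.44 (share 0.936). The second Col4a1 probe read -5.04 there against -3.84 to -3.72 (0.908). Agrn read 5.33 against 3.58 to 3.65 (0.96), and Plod3 read -0.12 against 0.89 to 1.06 (0.855). Plod1 read 1.58 against 0.98 to 1.08 there (0.842). On young_AL 4 the second Nid2 probe read -9.45 against -3.74 to -3.58 (0.973), Itgb1 read -9.42 against 1.37 to 1.41 (0.996), and Plod1 read -4.16 against 1.08 to 1.14 (0.988). On old_AL 4 Itgb1 read 1.70 against 1.38 to 1.40 (0.933).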

How the results depend on the processing

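The falls of Col4a1 passed under 12 of 14 alternatives in both comparisons with young_AL, and the exceptions were all 12 arrays and the replicate block. The fall of Nid2 passed in 11 of 14 and that of Lamc1 in 10 of 14. Of the 4 genes, 0 passed with age and 0 in old_CR against young_AL with all 12 arrays, 3 passed with age under median centring, where Lamc1 (-0.22, adjusted p 0.0362) and Nid2 (-0.33, 0.0404) joined Col4a1, and 1 (Nid2, adjusted p 0.0421) passed with diet after normexp. Median centring moved the median age difference of all genes from 0.03 to -0.07.

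Of the wider list, 0 passed with age with all 12 arrays, 0 with the compared groups fitted alone, 1 under quantile normalization, no filter, the filter on every array or the mean of probes, 5 under median centring and 6 after normexp, against 2. With diet 2 passed under median centring, 8 after normexp and 3 with an intensity trend or array weights, against 0. In old_CR against young_AL 2 passed with the compared groups alone, 1 with a trend and 3 with weights, against 0.

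Directions turned with all 12 arrays for the age differences of Lamc1 (0.42), Agrn (0.25) and Plod3 (-0.22) and the diet differences of Agrn (-0.28) and Plod3 (0.055). They turned for the diet difference of Sparc under quantile normalization (0.0107) and median centring (0.0507), and for the age difference of Plod3 under median centring (-0.0524). The mean of probes turned Nid2 with age (0.66) and in old_CR against young_AL (0.16) and Col4a1 with diet (-0.0772). Array weights turned Col4a1 with diet (-0.0439) and Lamb2 in old_CR against young_AL (0.00662). The cause was not tested, except that the mean of probes includes the blank Nid2 spot.

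With 1 array left out, the 4 genes gave 1 to 1 calls with age, 0 to 1 with diet and 1 to 3 in old_CR against young_AL, and the wider list gave 0 to 2, 0 to 0 and 0 to 1. Calls over all genes then ranged from 70 to 402, 1 to 924 and 42 to 862, and under the other alternatives from 4 to 3838, 0 to 4732 and 4 to 1775, against 676, 222 and 503. Signs turned within the ranges of Col4a1 with diet (-0.0499 to 0.0867), Lamb2 in old_CR against young_AL (-0.107 to 0.0581), Plod3 with age (-0.00619 to 0.0894), and Serpinh1 (-0.237 to 0.00375) and Sparc (-0.119 to 0.0323) with diet.

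The replicate number as a block left 0 of the 4 genes and 0 of the wider list called in each comparison, and 20, 1 and 17 of all genes. Col4a1 then differed by -0.63 with age (adjusted p 0.0676) and -0.61 in old_CR against young_AL (0.0809). The sample titles carry a second numbering that differs from these replicate numbers, and it was not used. Arrays of one replicate number share only that number: deviations of 10 same-numbered pairs correlated between -0.09 and 0.09, and those of 30 other pairs between -0.13 and 0.10, and 4 of 11 arrays correlated best with an array of their own number. The slide as a block was not run, because no slide holds young and old arrays and the old groups share a slide. Dim probes, such as those of Smoc1 and the second Nid2 probe, limit what can be said of those genes.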
